A study of Homo sapiens with 4 samples.

Results

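A set of 10 receptor tyrosine kinase genes was followed, PDGFRA, PDGFRB, FGFR1, FGFR2, FGFR3, FGFR4, MET, AXL, IGF1R and KIT. They were taken by name, and each matched 1 identifier among the 57820 in the count tables. Of the 10, 9 passed the filter on low counts and were tested among 17024 genes in all, and KIT did not pass it. The samples were 4 libraries of poly(A) RNA from Daoy, an established human medulloblastoma line. In 3 of them the genotype was labelled wild-type, and in 1 it was labelled as expressing an shRNA (a short hairpin RNA, which lowers a target mRNA) against ARID1B, a subunit of the BAF chromatin remodelling complexes. The labels give the same doxycycline treatment for all 4, 1 µg/ml for 72 h, which switches the hairpin on. The shRNA cells were polyclonal populations carrying a doxycycline-inducible lentiviral vector. The controls were described as vector-only and parental cells, without saying which wild-type library was which.

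Libraries held between 8792848 reads assigned to genes, in the library labelled shRNA, and 15390106. The targeted gene showed no reduction under its own hairpin: ARID1B stood at 175 CPM (counts per 1000000 reads, with library totals scaled by the trimmed mean of M-values, TMM) where the label says ARID1B shRNA, against 164, 88.0 and 72.9 CPM in wild type (log2 fold change 0.69, edgeR adjusted p = 0.399). Leaving out wild-type library 1 put it higher by 1.12 (edgeR adjusted p = 0.026), and with trends on GC content and length removed it stood at -0.20 (0.873). The sample is therefore called the library labelled shRNA below, and each direction is that of this library. Genes rich in G and C read higher in that library: the median log2 fold change was -0.30 in the tenth of tested genes with the lowest GC content and 1.32 in the tenth with the highest. Each receptor is given as measured and, where it matters, after each library's smooth trend on GC content and transcript length was taken out (detrended below). Of the 15 medulloblastoma and neural lineage markers, ATOH1 had 0 reads in every library and NEUROD1, GFAP and RBFOX3 had fewer than 10 in each, while PAX6 read 20.9 to 26.6 CPM and SOX9 30.6 to 54.1 CPM. These 15 markers summed to 137 to 179 CPM in wild type and to 219 CPM in the library labelled shRNA. Of 11 tested, 2 rose, MYC from 13.3, 17.2 and 16.3 to 55.8 CPM (edgeR adjusted p = 0.0233) and ZIC2 from 8.93, 10.6 and 8.14 to 24.8 CPM (0.043, and 0.21 with the same trends removed), and the median log2 fold change was -0.07. Over all tested genes 3.65% rose by the same test and the median log2 fold change was -0.05. Blood and immune markers summed to 4.66 to 11.3 CPM in wild type against 2.28 CPM in the library labelled shRNA. Most of this sum was CSF1R, at 4.19, 9.89 and 5.47 CPM in wild type against 1.71 CPM. Of the 8 markers, 6 had under 10 reads in every library. CD3E and HBB were at 0. Endothelial markers summed to 17.2 to 20.6 against 14.6 CPM, with CDH5 and CLDN5 under 10 reads everywhere. Most of this sum was TEK, at 15.7, 15.2 and 17.8 CPM in wild type against 9.92 CPM. Of 3 tested endothelial markers, TEK stood below every wild-type library, as did 37.9% of all tested genes. The other 2 stood above, as did 35.4%. Their median log2 fold change over the 3 was 0.59, and -0.36 detrended. Epithelial markers summed to 232 to 334 against 390.2 CPM, above every wild-type library. Nearly all of this came from EPCAM, KRT8 and KRT18 together, as CDH1 and KRT19 had under 10 reads everywhere.

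Most receptor tyrosine kinases are single-pass membrane proteins that dimerise on binding a ligand outside the cell. They phosphorylate each other's tails and recruit adaptors that activate RAS and PI3-kinase. PDGFRA, PDGFRB and KIT belong to the same family and answer platelet-derived growth factors and stem cell factor. FGFR1 to FGFR4 bind fibroblast growth factors together with heparan sulphate, MET binds hepatocyte growth factor, AXL binds GAS6, and IGF1R binds insulin-like growth factors. In the cerebellum and in medulloblastoma, growth factor receptors of these families have been studied for roles in proliferation, survival and spread.

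None of the 9 tested receptors passed the test at an adjusted p of 0.05 (edgeR quasi-likelihood test), where 4.48% of all tested genes did, 3.65% higher and 0.834% lower. None passed after detrending either, where 3.23% of all tested genes did. At an unadjusted p below 0.05 there were 3, AXL, FGFR4 and FGFR3, and 25.4% of all tested genes reached that level. AXL came closest to the threshold. DESeq2 called 2 receptors, AXL higher (adjusted p = 0.0211) and PDGFRB lower (adjusted p = 0.0184), limma-voom called 0, and edgeR with no filter on low counts called AXL alone (adjusted p = 0.00589). Against the wild-type range, 4 receptors stood above all 3 wild-type libraries and 2 below, and 35.4% and 37.9% of all tested genes did the same. FGFR4, among these 4 and among the 3 above, passed the filter on low counts only through the library labelled shRNA. Its place in both counts was therefore partly set by the filter. The median log2 fold change of the 9 receptors was 0.11, beside -0.05 for all tested genes. With upper-quartile scaling the receptor median was -0.01, and the median of all tested genes shifted by -0.12. With a single library labelled shRNA, an exact permutation of the 4 libraries could not give a p below 0.25 for any one gene, and the test across genes took its spread from the wild-type libraries alone.

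**Figure D1:**
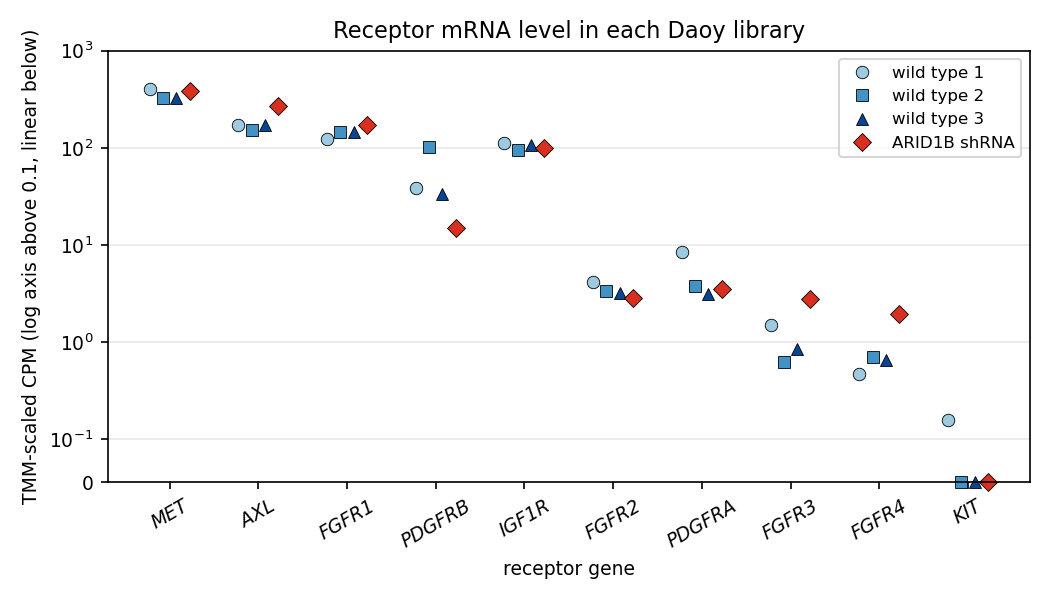
TMM-scaled CPM of the 10 receptors in each library, on an axis that is logarithmic above 0.1 and linear below, with genes ordered by their wild-type level per kilobase. MET, AXL, FGFR1 and IGF1R lie near or above 100 CPM in every library, PDGFRB is spread from 14.9 to 102 CPM, and KIT is at 0 in 3 of the 4 libraries.

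The receptors fell into a well-expressed and a barely expressed set. Per kilobase of the longest transcript, MET led at 53.1 ± 6.32 CPM per kilobase (SD, n = 3 wild-type libraries), followed by AXL at 34.8 ± 2.47 and FGFR1 at 22.2 ± 2.20. PDGFRB at 10.2 ± 6.72 and IGF1R at 8.57 ± 0.712 came next, and their wild-type values overlapped. FGFR2 (0.811 ± 0.114) and PDGFRA (0.779 ± 0.442) overlapped as well, as did FGFR3 (0.221 ± 0.0999) and FGFR4 (0.193 ± 0.0391), while KIT was last at 0.00998. The other neighbours in this order did not overlap between wild-type libraries. Replacing the longest transcript by the union of exons exchanged the places of FGFR2 and PDGFRA and no others in the order of wild-type means. With union lengths FGFR1 and PDGFRB overlapped in wild type. FGFR1 was then at 8.81, 10.5 and 10.6 CPM per kilobase in libraries 1, 2 and 3 and PDGFRB at 5.36, 14.4 and 4.72. IGF1R stood above PDGFRB in wild-type libraries 1 and 3 and in the library labelled shRNA, and below it in wild-type library 2. In the library labelled shRNA PDGFRA (0.538 CPM per kilobase, from 31 reads) came below FGFR4 (0.621, 17 reads) and FGFR3 (0.617, 24 reads), an order seen in no wild-type library. MET and AXL together with FGFR1 made up most of the summed level per kilobase in each library. The share of AXL in that sum was 26.8%, 24.2% and 28.95% in wild type against 36.7% in the library labelled shRNA, and the share of MET was 44.8%, 37.4% and 39.4% against 36.9%.

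AXL, a receptor of the TAM family (TYRO3, AXL and MERTK) tied to invasion and drug tolerance in many tumours, measured 171, 151 and 172 CPM in wild-type libraries 1, 2 and 3 and 271 CPM in the library labelled shRNA. The wild-type values lay close together and the shRNA value above all of them, with an exact Poisson interval of 260.1 to 282 CPM that covers counting error only. The log2 fold change of AXL was 0.72 (standard error, SE, 0.16), and its 95% interval ran from 0.32 to 1.12 (edgeR adjusted p = 0.0673). Leaving out wild-type library 1, 2 or 3 gave 0.74, 0.67 and 0.74 (edgeR adjusted p = 0.0821, 0.117 and 0.115). Detrending took the log2 fold change of AXL from 0.72 to 0.45 (SE 0.12, edgeR adjusted p = 0.11). Per kilobase, AXL stood at 0.599, 0.646 and 0.735 of the MET level in wild type and at 0.997 of it in the library labelled shRNA, where AXL measured 57.2 and MET 57.4 CPM per kilobase. The log2 fold changes of AXL and MET lay closer together after detrending (0.45 and 0.29) than as measured (0.72 and 0.11).

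MET, the receptor of hepatocyte growth factor and the most abundant of the 10, read 400.5, 328 and 328 CPM in wild type against 381 CPM in the library labelled shRNA, within the wild-type range. Its log2 fold change was 0.11 with a 95% interval of -0.35 to 0.57 (edgeR adjusted p = 0.736), and it turned to -0.01 with upper-quartile scaling. Detrended, MET was at 0.29 (edgeR adjusted p = 0.337). HGF, its ligand, had 3, 1 and 5 reads in wild type against 1 in the library labelled shRNA, too few to test.

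FGFR1 was the only well-expressed FGF receptor. It read 122, 145 and 146 CPM in wild type against 173 CPM in the library labelled shRNA, above each wild-type library (log2 fold change 0.33, 95% interval -0.11 to 0.78, edgeR adjusted p = 0.306). Removing the trend left 0.18 (edgeR adjusted p = 0.546). In the annotation LETM2, on the opposite strand, covers 0.997% of the FGFR1 exon bases and the antisense gene AC087623.1 covers 1.13%, an antisense gene, AC011510.1, covers 1.3% of those of AXL, and without a stated strand setting reads there cannot be told apart. LETM2 itself had 26 to 60 reads in the libraries, beside 1520 to 2247 for FGFR1.

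FGFR3 and FGFR4 were near the limit of detection. FGFR3 had 19, 8 and 13 reads in wild type against 24 in the library labelled shRNA, which gave 1.47, 0.618 and 0.846 CPM against 2.74 CPM. FGFR4 had 6, 9 and 10 reads and 17 in the library labelled shRNA, or 0.466, 0.696 and 0.651 CPM against 1.94 CPM. Both were above every wild-type library. Their log2 fold changes were 1.48 (95% interval 0.07 to 2.89) and 1.66 (0.37 to 2.96), with an edgeR adjusted p of 0.182 and 0.129. These transcripts are also the 2 richest in GC of the 10 receptors, at 62.0% and 63.6%, in the tenth of genes whose median was 1.32. After detrending the values went to 0.40 and 0.43 (edgeR adjusted p = 0.709 and 0.677). FGFR4 passed the filter on low counts only through its 17 reads in the library labelled shRNA, so it was tested only because it was higher there. FGFR2, a close relative with 48.8% GC, read 4.11, 3.32 and 3.19 CPM in wild type against 2.85 CPM in the library labelled shRNA, from 25 reads (log2 fold change -0.31, 95% interval -1.29 to 0.66, edgeR adjusted p = 0.655). Removing the trend left FGFR2 at -0.31.

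**Figure D2:**
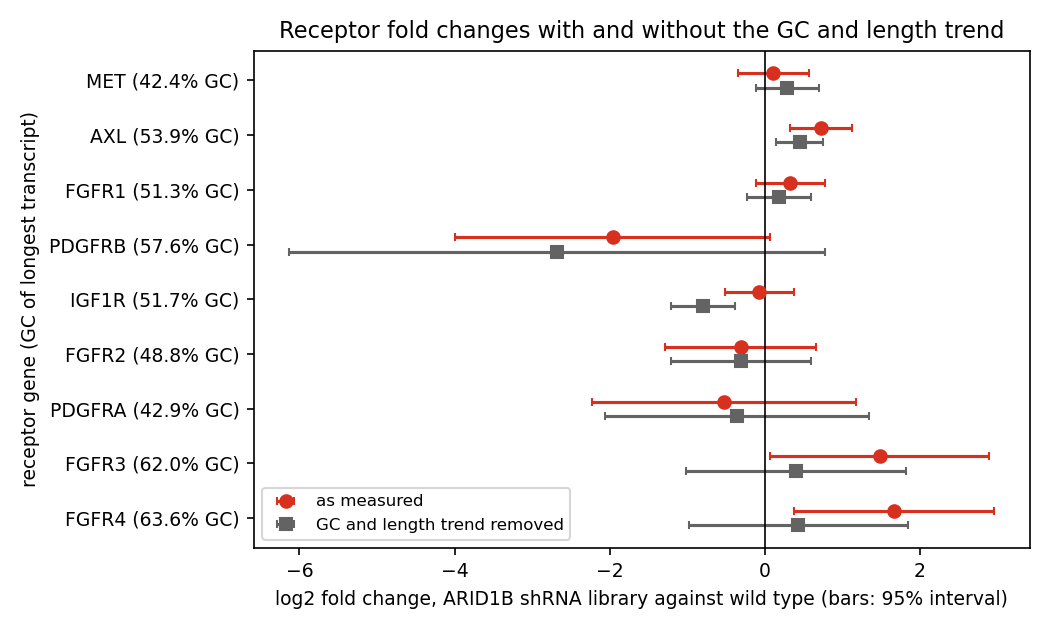
Log2 fold change of the 9 tested receptors, library labelled shRNA against wild type, with 95% intervals, as measured (circles) and detrended (squares). FGFR3 and FGFR4 move from 1.48 and 1.66 to 0.40 and 0.43, IGF1R from -0.07 to -0.80, and no receptor has an adjusted p below 0.05 in either fit.

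IGF1R, which carries growth and survival signals of IGF1 and IGF2, read 113, 95.5 and 106 CPM in wild type against 100.0 CPM in the library labelled shRNA. The shRNA value lay within the wild-type range (log2 fold change -0.07, 95% interval -0.51 to 0.37, edgeR adjusted p = 0.841). IGF1R has the longest transcript of the 10 receptors, 12235 bases, and its detrended value was -0.80 with a 95% interval of -1.21 to -0.38 (edgeR adjusted p = 0.0698). INSR, the insulin receptor and its nearest relative, read 41.0, 40.0 and 33.3 CPM in wild type against 42.5 CPM in the library labelled shRNA.

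The PDGF receptors varied most between wild-type libraries. PDGFRB, a receptor of mesenchymal and perivascular cells, read 38.3, 102 and 33.7 CPM in wild type against 14.9 CPM in the library labelled shRNA. Wild-type library 2 was 3.04 times the lowest wild-type library, and the library labelled shRNA was below all 3, with an exact Poisson interval of 12.5 to 17.7 CPM. The log2 fold change of PDGFRB was -1.96 (SE 0.79), its 95% interval ran from -3.99 to 0.07 and the edgeR adjusted p was 0.208. Without wild-type library 2 it was -1.26 (edgeR adjusted p = 0.0776), and after detrending -2.68 (0.28). PDGFRA, which marks oligodendrocyte precursors in the brain, read 8.46, 3.79 and 3.12 CPM in wild type against 3.54 CPM in the library labelled shRNA. Here wild-type library 1 stood apart and the library labelled shRNA lay among the other two (log2 fold change -0.53, 95% interval -2.23 to 1.17, edgeR adjusted p = 0.659). Without library 1 the value was 0.04 (edgeR adjusted p = 0.972). A readthrough gene on the same strand covers 15.8% of the PDGFRA exon bases in the annotation, and reads there cannot be assigned to PDGFRA with certainty.

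KIT, the receptor of stem cell factor, had 2 reads in wild-type library 1 and 0 in the other libraries. In the library labelled shRNA a count of 0 allows up to 0.342 CPM (a floor of 3 counts). KITLG, which encodes stem cell factor, was present at 47.7, 44.8 and 53.4 CPM in wild type against 31.1 CPM in the library labelled shRNA (log2 fold change -0.64, edgeR adjusted p = 0.139).

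PDGFRB was set beside 10 fibroblast and mesenchymal markers. All 10 were tested. FAP fell, from 15.8, 16.1 and 18.2 CPM to 2.17 CPM (log2 change -2.94, edgeR adjusted p = 0.0209), the other 9 did not pass, and the library labelled shRNA was below every wild-type library for 7 of the 10, as for 37.9% of all tested genes. Beside the fall of FAP, 0.834% of all tested genes fell by the same test. The median log2 fold change was -0.05 for all tested genes and -1.34 for this list. Its summed level was 5140, 3903 and 5881 CPM in wild type, lowest in library 2 where PDGFRB was highest, against 3685 CPM in the library labelled shRNA, and none of the markers was at 0. Of the 10 markers, the proteoglycan genes LUM (21.7, 130.0 and 24.2 CPM) and DCN (0.310, 29.8 and 6.83 CPM) were, like PDGFRB, highest in wild-type library 2, and read 14.4 and 1.25 CPM in the library labelled shRNA. In bulk RNA fewer cells of a kind and less RNA per cell cannot be told apart. The part of these genes in the PDGFRB value was not tested.

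**Figure D3:**
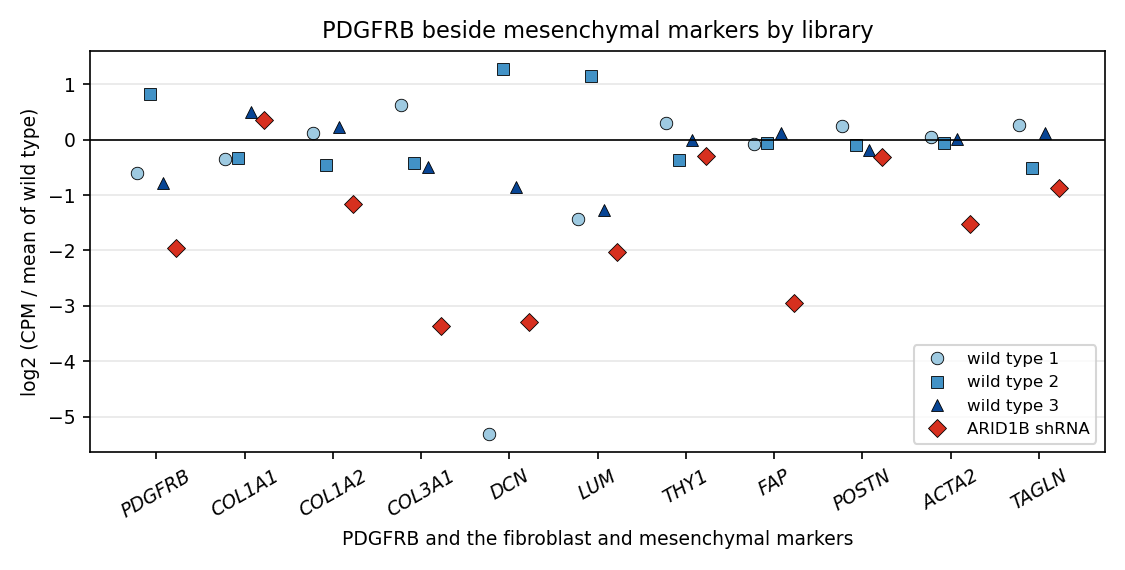
Log2 ratio of each library's CPM to the wild-type mean for PDGFRB and the 10 fibroblast and mesenchymal markers. Wild-type library 2 is the highest for PDGFRB, DCN and LUM, and the library labelled shRNA is the lowest for PDGFRB and for 7 of the 10 markers.

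The genes whose levels over the 4 libraries were closest to those of PDGFRB, by Euclidean distance of centred log2 CPM among 9995 well-expressed protein-coding genes, were ITGB8 (distance 0.357), SOX5 (0.521) and IL1R1 (0.553). ITGB8, an integrin subunit, read 65.7, 245 and 73.9 CPM in wild type against 29.7 CPM in the library labelled shRNA. Nearest to FGFR4 were TRIM16L (0.06), PFKFB3 (0.072) and MAFG (0.0913). Each had its shRNA value above all wild-type values, which the match to the FGFR4 profile makes likely in advance. With 4 libraries such distances are a description, and that of FGFR4 rests on 6 to 17 reads per library.

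Among ligands of MET, AXL and IGF1R, 1 gene rose and 1 fell of 5 tested, where 3.65% of all tested genes rose and 0.834% fell. Both are TAM ligands. GAS6, the vitamin K-dependent ligand of AXL, rose from 8.07, 6.72 and 9.96 CPM to 29.998 CPM (1.86 on the log2 scale, SE 0.28, edgeR adjusted p = 0.0323). PROS1, which encodes protein S, a ligand of TYRO3 and MERTK, fell from 59.1, 44.6 and 52.4 CPM to 20.9 CPM (-1.32, SE 0.25, edgeR adjusted p = 0.0491). Both shRNA values lay outside the wild-type range, as did 73.3% of all tested genes. Per kilobase, GAS6 stood at 0.185, 0.204 and 0.257 of the PROS1 level in wild type and at 1.95 times it in the library labelled shRNA.

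Both calls ended after detrending, GAS6 at 0.91 (edgeR adjusted p = 0.0657) and PROS1 at -1.10 (0.0791). Without wild-type library 2 both missed the threshold (0.0574 and 0.0607), and PROS1 also without library 3 (0.0981) and with limma-voom (0.0574), with no robust shrinkage (0.0524) and at a mean count of at least 50 (0.0501). Of the other TAM receptors, TYRO3 read 23.3, 15.4 and 20.3 CPM in wild type against 42.8 CPM in the library labelled shRNA (log2 fold change 1.12, edgeR adjusted p = 0.0789), and MERTK 7.76, 6.34 and 3.38 against 3.88 CPM (-0.58, 0.542). IGF1 and IGF2 were scarce, with at most 1.79 and 3.88 CPM in any library, and INS had 0 reads.

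**Figure D4:**
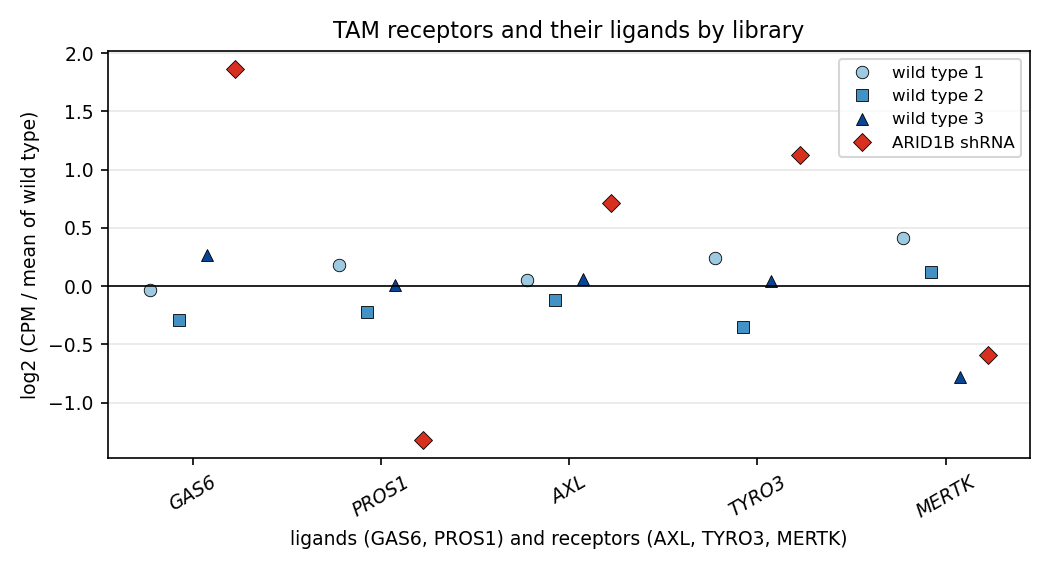
Log2 ratio of each library's CPM to the wild-type mean for the ligands GAS6 and PROS1 and the receptors AXL, TYRO3 and MERTK. The library labelled shRNA lies above every wild-type library for GAS6, AXL and TYRO3 and below every one for PROS1, and only GAS6 and PROS1 passed the test.

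Among FGF ligands 1 of 9 tested genes rose, where 3.65% of all tested genes did. The gene was FGF21, an endocrine FGF induced by the stress factor ATF4. It had 1, 0 and 1 reads in wild type against 51 in the library labelled shRNA, 5.82 CPM (edgeR adjusted p = 0.0183). The summed counts put it 119.8-fold higher, with an exact 95% interval of 31.5-fold to 1016-fold for counting error only. FGF21 also passed after detrending (0.0192), and with any single wild-type library left out. FGF21 passed the filter on low counts only through its reads in the library labelled shRNA. It was thus tested only because it was high there, and these passes are not separate support. KLB, the co-receptor through which FGF21 acts on FGFR1, had 4, 3 and 3 reads in wild type against 2 in the library labelled shRNA. The other 8 tested FGF genes did not pass. FGF2, a broadly acting ligand, read 5.12, 16.0 and 14.4 CPM in wild type against 27.8 CPM in the library labelled shRNA (log2 fold change 1.23, edgeR adjusted p = 0.267). Of 22 FGF genes 5 had no read in any library. Among 5 tested PDGF, KIT and CSF ligands none passed. PDGFC, a ligand of PDGFRA, read 48.5, 66.4 and 59.8 CPM in wild type against 30.2 CPM in the library labelled shRNA (-0.95, edgeR adjusted p = 0.094), and PDGFB had at most 7 reads.

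The bases before the start sites of AXL and PDGFRB, the receptors that DESeq2 called, and of FGF21, the ligand with the largest difference, are shown for reference. Each is the 250 bases upstream of the RefSeq gene start (GRCh38.p14). Capitals mark any match on either strand. The searched letters were GGGCGG for the GC box, CCAAT for the CCAAT box and TATAAA for the TATA box. For AP-1 they were TGANTCA, and for the composite element of ATF4 and C/EBP they were TGATGNAA. No spelling contains another.
AXL, chr19:41218973-41219222, plus strand: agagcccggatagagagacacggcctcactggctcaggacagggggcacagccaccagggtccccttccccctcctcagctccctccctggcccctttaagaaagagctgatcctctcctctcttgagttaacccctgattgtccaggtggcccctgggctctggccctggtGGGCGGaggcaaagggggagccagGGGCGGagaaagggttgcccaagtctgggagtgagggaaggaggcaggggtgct
PDGFRB, chr5:150155846-150156095, minus strand: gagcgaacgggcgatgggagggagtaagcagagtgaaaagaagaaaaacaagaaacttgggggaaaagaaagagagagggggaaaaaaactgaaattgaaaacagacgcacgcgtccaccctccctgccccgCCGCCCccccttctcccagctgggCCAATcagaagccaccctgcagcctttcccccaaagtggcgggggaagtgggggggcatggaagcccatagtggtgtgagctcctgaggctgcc
FGF21, chr19:48755274-48755523, plus strand: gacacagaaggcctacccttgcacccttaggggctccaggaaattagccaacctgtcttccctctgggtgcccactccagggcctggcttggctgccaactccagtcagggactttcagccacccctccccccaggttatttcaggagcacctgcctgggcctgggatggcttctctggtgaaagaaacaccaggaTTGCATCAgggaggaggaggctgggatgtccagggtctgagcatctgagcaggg
AXL holds 2 GC boxes in this window, PDGFRB 1 GC box and 1 CCAAT, and FGF21 1 match to the composite element. Of 35116 RefSeq windows of this length 42.6% hold a GC box, 32.0% CCAAT and 3.14% the composite element. The start sites used in Daoy were not measured, and a match is a run of letters, not a measured binding site.

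In 8 lists of ligands, relatives and signalling genes, 14 of 120 tested genes passed (11.7%), 11 higher and 3 lower. Of all tested genes 4.48% passed, 3.65% higher and 0.834% lower. After detrending 5 of the 120 passed (4.17%), 3 higher and 2 lower, a share near the 3.23% of all tested genes. The median log2 fold change was 1.06 for FGF ligands, -0.08 for PDGF, KIT and CSF ligands, -0.36 for MET, AXL and IGF ligands, 0.35 for close relatives, 0.28 for shut-off genes and 0.31 for co-receptors, which stood at -0.02 after detrending. For receptors of other families it was 0.01, and -0.11 with upper-quartile scaling. Detrended medians were 0.83 for FGF ligands, -0.69 for PDGF, KIT and CSF ligands, -1.10 for MET, AXL and IGF ligands, 0.28 for close relatives, 0.38 for shut-off genes and -0.40 for receptors of other families. Both FGF ligand medians include FGF5, FGF21 and FGF22 (2.28, 6.64 and 2.88 as measured). Those genes passed the filter on low counts only through the library labelled shRNA, so the filter favours a high median for that list. Among close relatives of the receptors 1 of 8 rose, FLT4, the lymphatic VEGF receptor, from 7.37, 6.88 and 10.5 CPM to 26.3 CPM (edgeR adjusted p = 0.0438, and 0.187 after detrending). Without wild-type libraries 2 and 3 its adjusted p was 0.0774 and 0.0502. Among 19 tested receptors of other families 1 rose, AATK, an atypical kinase, from 2, 2 and 4 reads to 22 (edgeR adjusted p = 0.0358). It passed the filter on low counts only through the library labelled shRNA. AATK did not pass after detrending (0.135) or without wild-type library 2 (0.0736) or 3 (0.076).

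Among 18 tested co-receptors, decoys and binding proteins, 1 rose and 1 fell, where 3.65% of all tested genes rose and 0.834% fell. Both are heparan sulphate carriers of the cell surface. GPC1, glypican 1, rose from 19.7, 11.9 and 26.6 CPM to 125 CPM (log2 change 2.68, edgeR adjusted p = 0.0348) and SDC2, syndecan 2, fell from 170, 194 and 139 CPM to 62.7 CPM (-1.42, 0.0404). Detrended, GPC1 went to 0.96 (edgeR adjusted p = 0.0481) and SDC2 to -1.24 (0.0384), and both still passed. SDC2 had an adjusted p of 0.0663 and 0.0502 without wild-type libraries 2 and 3. FGFRL1, the FGF receptor that lacks a kinase domain, read 41.8, 24.7 and 36.4 CPM in wild type against 92.5 CPM in the library labelled shRNA (1.43, edgeR adjusted p = 0.0591), and 0.17 after detrending. The scavenger receptor IGF2R read 478, 480.4 and 552 CPM in wild type and 532 CPM with the shRNA label (0.08, edgeR adjusted p = 0.795), and it went to -0.50 after detrending (0.107).

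Of 34 tested adaptor and relay genes 3 rose, where 3.65% of all tested genes rose, and 31 did not pass. SRC, the kinase that couples many of these receptors to adhesion, rose from 30.3, 27.2 and 32.4 CPM to 91.4 CPM (log2 change 1.61, edgeR adjusted p = 0.0216). IRS2, an adaptor of the insulin and IGF1 receptors, rose from 5.67, 4.72 and 5.47 CPM to 25.1 CPM (2.25, 0.021), and SHC2, an SHC adaptor, from 3, 2 and 5 reads to 50 (0.0199). These 3 kept their calls with any single wild-type library left out. Of these SHC2 passed after detrending (2.66, edgeR adjusted p = 0.043), and IRS2 (1.31, 0.0516) and SRC (0.84, 0.0554) did not. SHC2 passed the filter on low counts only through the library labelled shRNA, so it was tested only because it was high there. The median of this list was 0.02, and -0.10 with upper-quartile scaling, beside -0.05 for all tested genes.

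Of 22 tested genes that shut receptors off, 3 rose and 1 fell, where 3.65% of all tested genes rose and 0.834% fell. GRB10, an adaptor that inhibits IGF1R and the insulin receptor, rose from 150.2, 168 and 245 CPM to 553 CPM (log2 change 1.56, edgeR adjusted p = 0.0462). HGS, which sorts receptors to lysosomes, rose from 77.0, 77.4 and 124 CPM to 329 CPM (1.82, 0.0385), and the receptor phosphatase PTPRF from 73.3, 78.0 and 119 CPM to 305 CPM (1.76, 0.0385). LRIG3, of the LRIG family of receptor regulators, fell from 31.9, 31.1 and 32.1 CPM to 11.9 CPM (-1.42, 0.0354). LRIG3 passed after detrending (-1.33, edgeR adjusted p = 0.0317), while GRB10 (1.44, 0.0555), PTPRF (0.83, 0.0739) and HGS (0.64, 0.103) did not. Without wild-type library 2 none of these 4 passed (0.104 for GRB10, 0.0806 for HGS, 0.0861 for PTPRF and 0.0672 for LRIG3), and LRIG3 did not pass without library 3 either (0.0701). GRB10 also missed the threshold at a mean count of at least 50 (0.0514).

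**Figure D5:**
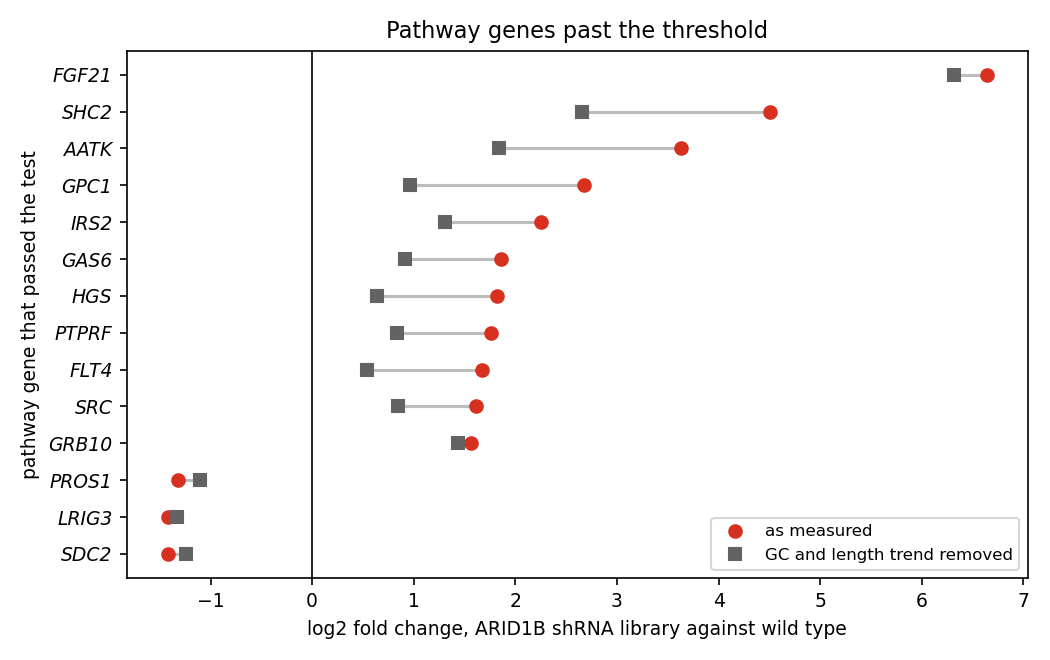
Log2 fold change, library labelled shRNA against wild type, of the 14 ligand, relative and signalling genes that passed the test, as measured (circles) and detrended (squares). The 11 higher genes lie closer to 0 after detrending, and FGF21, SHC2, GPC1, SDC2 and LRIG3 still passed. The fitted value of FGF21 depends on the prior count, since wild type held 2 reads in all.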

How the data were processed

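The authors deposited counts of reads per gene, 1 table per library, without normalization. Tools named in the submitters' processing notes are bcl2fastq, HISAT2, HTSeq and DESeq2, and the build is GRCh37 (hg19), per the submitters' processing notes. Their versions, the annotation and the strand setting were not given in the sources used here, and per the labels' protocols reads were 100-nucleotide single reads. The 5 summary lines without a gene (reads outside genes 5.27% to 7.65%, ambiguous 5.93% to 6.75%) were left out. Of the identifiers 89.9% matched a current symbol. Length and GC content came from the longest transcript in GENCODE 29 (GRCh38), so no gene coordinates are given on the authors' build.

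Counts were tested with edgeR 4.0.16 in R 4.3.3: filterByExpr (minimum count 10, total 15), TMM scaling, robust glmQLFit (legacy method) and glmQLFTest, Benjamini-Hochberg over 17024 genes, threshold 0.05. With a single library labelled shRNA, the filter keeps a gene whose count is high enough in any single library. Genes below the limit in every wild-type library were therefore tested only if high enough in the library labelled shRNA. The fit has 2 residual degrees of freedom from wild type, and nothing says that these libraries were separate cultures, so p-values measure only the spread between them, which may be technical. The SE is the absolute log2 fold change over the root of F, and Poisson and binomial intervals are exact at 95%. Alternatives were scaling by RLE or the upper quartile, limma-voom (limma 3.58.1) and DESeq2 1.42.0 as tools, other filters and fits, leaving out each wild-type library, and removal of a loess trend (span 0.3) on GC content and length. The procedure was tested on simulated data. The simulation held the same dispersion for every gene and no GC trend, so it does not cover these features of the real counts.

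The receptors and lists were chosen with earlier results of these data known. Named were all 10 receptors, ARID1B, up to 6 genes past the threshold per list or else the 2 with the smallest p, and the 3 genes nearest to the receptors with the largest rise and fall. TYRO3, MERTK, INSR, HGF, IGF1, IGF2, INS, KLB, FGF2, PDGFB, FGFRL1, IGF2R, LETM2, the antisense genes and the markers named singly were chosen after their values were seen.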

Additional observations from a re-analysis of the deposited data

How the results depend on the processing

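The count of receptors past the threshold, 0 as reported, was 1 with no filter on low counts and 2 with DESeq2, and 0 under each of the other 10 alternatives, which include leaving out each wild-type library. Among pathway genes the count of 14 went to 41 with no filter, 9 at a mean count of at least 50, 25 with DESeq2 and 5 after removal of the GC and length trend, and ranged from 5 to 21 when 1 wild-type library was left out (5 without library 2, 9 without library 3). Over all tested genes 763 went to 3226 with no filter and 1775 with DESeq2, and ranged from 157 (without library 2) to 1189 (without library 1). With no filter 30709 genes were tested, 138 of them pathway genes. The mean count of at least 50 left 12038 tested genes, of which 580 passed. Among those tested were 90 pathway genes and 6 receptors, and FGF21, AATK and SHC2 were not. DESeq2 and the removal of the trend kept 17024 tested genes, 120 of them pathway genes. Of genes called, 81.4% were higher as measured and 62.2% with the trend removed. Among 26 genes followed through every alternative (the receptors, ARID1B and the pathway genes named by rule) the direction turned in 3 cases, PDGFRA to 0.04 without wild-type library 1 (leaving out each wild-type library gave -0.79 to 0.04), MET to -0.01 with upper-quartile scaling and ARID1B to -0.20 with the trend removed. Exon-union lengths changed the place of 2 receptors, FGFR2 and PDGFRA. The cause of these changes was not tested. No paired analysis was possible because the library labelled shRNA carries no replicate number that matches a wild-type library. Depth limits KIT, FGFR3 and FGFR4, with at most 24 reads in any library.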
